A study of Rattus norvegicus with 20 samples.

Results

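The 10 genes described here mark macrophages or encode the complement protein C1q, and they were followed through mammary cancers and normal mammary tissue of irradiated rats: C1qa, C1qb, C1qc, Cd14, Cd68, Cd163, Csf1r, Tyrobp, Aif1 and Fcgr2a. A probe of the array was taken as a member's when the RefSeq accession in the scanner file belongs to that gene. By this rule 9 of the 10 genes had a probe, 12 probes of 41012 in all, and Cd163, a scavenger receptor for haemoglobin bound to haptoglobin, was not analysed here. C1qa, C1qc and Cd14 had 2 probes each, of which the brighter stands for the gene. All 12 probes were well above background on all 20 arrays. The 9 genes are among 36043 genes tested, where a probe without a gene name counts as a gene.

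All rats were female Sprague-Dawley (Jcl:SD) animals, and all, the lean controls included, received 4 Gy of Cs-137 gamma rays over the whole body at 7 weeks of age, at 0.5 Gy/min. On a diet with 45 kcal% fat, the rats were sorted by their weight at that age as prone to obesity (OP) or resistant to it (OR), and lean controls (LC) ate a diet with 10 kcal% fat. Each rat stayed on its diet during 30 weeks of observation for palpable tumours. Cancers came from 6 OP, 3 OR and 3 LC samples, and normal tissue, from rats of matched age, from 3 OP, 2 OR and 3 LC samples. The adenocarcinomas had been picked for uniform histology, and tumours with necrosis or heavy cell infiltration had not been taken, which limits them as a sample of macrophage content. The labels do not tie each sample to an animal of its own, so p-values rest on sample-to-sample spread, which may be technical. RNA came from whole tissue, so fewer cells of a type and less RNA per cell cannot be told apart.

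C1q is the recognition part of the classical complement pathway and is built from 3 chains, A, B and C, which are encoded by neighbouring genes and made mainly by macrophages and dendritic cells rather than by the liver. Macrophages depend on the receptor for colony stimulating factor 1 (Csf1r), carry Fc receptors and CD14 at their surface, and signal through the adaptor TYROBP. In the mammary gland they lie around ducts and in fat, where they clear dying cells, and in mammary tumours they are often the most abundant immune cells.

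Since 8 of the 9 genes moved together from array to array, as described further on, the stretch of DNA just before the start of transcription is shown for 4 windows of members that did so. The sequences are RefSeq's, from the rat build GRCr8, read along the strand of the gene and ending at the base before the annotated start. Capitals mark GAGGAA or its reverse complement TTCCTC, the core of the site bound by the macrophage transcription factor PU.1. All 4 genes lie on the minus strand, with the windows at chr5:154419934-154420183 for C1qa, chr5:154407828-154408077 for C1qb, chr10:54882442-54882691 for Cd68 and chr13:85828686-85828935 for Fcgr2a.
C1qa: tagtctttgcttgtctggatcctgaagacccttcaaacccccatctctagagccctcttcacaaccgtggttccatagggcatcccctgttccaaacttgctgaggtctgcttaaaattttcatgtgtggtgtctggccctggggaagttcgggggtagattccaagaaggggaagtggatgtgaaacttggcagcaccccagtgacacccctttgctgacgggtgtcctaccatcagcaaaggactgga
C1qb: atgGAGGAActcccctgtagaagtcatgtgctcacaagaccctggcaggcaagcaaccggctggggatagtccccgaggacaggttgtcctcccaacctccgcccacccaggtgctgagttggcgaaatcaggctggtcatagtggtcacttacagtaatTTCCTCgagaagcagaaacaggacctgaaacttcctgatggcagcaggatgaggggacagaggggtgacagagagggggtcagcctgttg
Cd68: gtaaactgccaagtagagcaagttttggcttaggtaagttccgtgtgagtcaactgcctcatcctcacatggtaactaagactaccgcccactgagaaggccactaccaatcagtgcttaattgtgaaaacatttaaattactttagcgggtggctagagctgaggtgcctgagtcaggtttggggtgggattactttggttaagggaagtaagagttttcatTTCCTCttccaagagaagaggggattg
Fcgr2a: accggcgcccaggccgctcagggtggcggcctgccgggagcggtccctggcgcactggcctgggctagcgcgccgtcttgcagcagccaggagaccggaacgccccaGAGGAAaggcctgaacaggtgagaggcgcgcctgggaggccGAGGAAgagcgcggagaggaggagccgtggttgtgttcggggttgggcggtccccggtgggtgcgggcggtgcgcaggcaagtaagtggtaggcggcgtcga
The C1qb window held 2 matches, starting at -247 and -90 relative to the start of transcription, Cd68 had 1, at -27, and C1qa had none. The Fcgr2a window held 2, at -143 and -102, and a window at another annotated start of that gene held none. Cd14, which did not move with the others, also had 2, at -140 and -105, as did Csf1r, at -229 and -95. Promoter windows were found for 7 of the 10 genes and for 8 start sites, and 5 of these 8 windows held a match. Among all 33469 promoter windows of 250 bases, 7812 (23.3%) held one on either strand. A match is a run of letters and not a measured binding site, and its absence says only that these letters are not in the window.

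The facts of the arrays that touch these genes are few. The arrays lay on 5 slides read on 2 scan days. All 8 normal tissues and 4 cancers were on the 3 slides of the second scan day, and the other 8 cancers were on the first scan day, 4 OP cancers on 1 slide and 2 OR and 2 LC cancers on another. The share of probes well above background was 61.3% to 79.3% in the cancers and 87.7% to 97.7% in the normal tissues, so the arrays of the tissues differed in this respect without overlap. Levels are log2 brightness after background correction and quantile normalization over all arrays, and levels of different genes are not compared, since each probe has its own brightness. The labelled tissues were checked against markers: all 9 adipocyte genes tested were lower in the cancers (median log2 difference -5.49), and all 7 luminal epithelial genes tested were higher (median 1.54), of which 6 were called higher and at most 1 lower with either scaling to the 75th percentile. In the cancers 2 of the 9 adipocyte genes were not well above background on any array. These markers move with the contrast of cancer and normal tissue, and their part in it was not tested.

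C1qa encodes the A chain of C1q. In the 6 OP cancers its log2 level ran from 11.97 to 15.10 with a median of 12.82. The OR cancers stood at 13.41, 14.25 and 13.50, and the LC cancers at 12.06, 12.80 and 13.13. In normal tissue the OP samples stood at 14.14, 12.71 and 12.69, the OR samples at 12.54 and 12.71, and the LC samples at 14.79, 14.26 and 14.17. The LC normal tissues were thus all above the OR and OP normal tissues and above every cancer but 1 OP and 1 OR cancer, whose levels reached or passed the lower LC values.

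C1qb encodes the B chain. Its levels in the OP cancers ran from 12.91 to 16.03 with a median of 13.89, the OR cancers stood at 15.05, 15.09 and 14.91, and the LC cancers at 13.61, 13.76 and 14.53. The OP normal tissues stood at 15.94, 14.90 and 14.80, the OR normal tissues at 14.54 and 15.03, and the LC normal tissues at 17.19, 15.64 and 15.89. The 3 OR cancers lay within a narrow band (SD 0.10) that overlapped the range of the high-fat normal tissues.

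C1qc encodes the C chain. Levels in the OP cancers ran from 10.20 to 12.97 with a median of 10.79, the OR cancers stood at 11.70, 12.07 and 11.69, and the LC cancers at 10.43, 10.95 and 11.36. Normal tissues stood at 11.85, 10.65 and 10.66 in OP, at 10.55 and 10.91 in OR and at 12.87, 11.83 and 12.01 in LC. The order of arrays resembled that of the other chains, with OP cancer replicate 6 highest among the cancers and LC normal replicate 1 highest among the normal tissues.

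Csf1r encodes the receptor through which colony stimulating factor 1 and interleukin 34 keep macrophages alive. Among OP cancers it ran from 8.27 to 11.20 with a median of 8.83, the OR cancers stood at 9.52, 10.44 and 9.70, and the LC cancers at 8.88, 9.24 and 9.72. Normal tissues stood at 9.08, 8.54 and 8.87 in OP, at 8.62 and 8.78 in OR and at 10.31, 9.09 and 9.66 in LC. Here the OR cancers had the highest group mean, 9.89 ± 0.49 (SD, n = 3), against 9.69 ± 0.61 (n = 3) in LC normal tissue.

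Tyrobp encodes the adaptor DAP12, which carries the signal of receptors such as TREM2. In the OP cancers it ran from 11.80 to 14.57 with a median of 12.46, the OR cancers stood at 13.21, 13.53 and 12.48, and the LC cancers at 11.85, 12.21 and 12.53. In normal tissue the OP samples stood at 13.64, 13.39 and 13.17, the OR normal tissues at 13.30 and 13.53, and the LC normal tissues at 14.44, 14.01 and 14.43. The LC normal tissues were higher than every other normal tissue, and the LC cancers were lower than every normal tissue.

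Aif1 encodes IBA1, a calcium-binding protein used to stain macrophages and microglia. The OP cancers ran from 10.55 to 12.70 with a median of 11.26, the OR cancers stood at 11.89, 12.23 and 11.33, and the LC cancers at 11.17, 10.90 and 11.28. The OP normal tissues stood at 12.37, 11.59 and 11.85, the OR normal tissues at 11.70 and 12.03, and the LC normal tissues at 13.07, 12.48 and 13.25. As with Tyrobp, the LC cancers lay below every normal tissue, and the LC normal tissues lay above all other normal tissues.

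Cd68 encodes a lysosomal glycoprotein that is abundant in macrophages. The OP cancers ran from 11.09 to 14.40 with a median of 11.92, the OR cancers stood at 12.50, 12.97 and 12.64, and the LC cancers at 11.93, 12.28 and 12.48. The OP normal tissues stood at 13.01, 12.41 and 12.35, the OR normal tissues at 12.09 and 12.32, and the LC normal tissues at 13.79, 12.59 and 13.52. All 6 groups overlapped with their neighbours in the order of the means.

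Fcgr2a encodes a low-affinity receptor for the constant part of immunoglobulin G. The probe is named from its accession, and rat Fc gamma receptor genes are closely alike, so signal from a related gene cannot be told apart. The OP cancers ran from 7.88 to 11.07 with a median of 8.41, the OR cancers stood at 9.03, 9.72 and 9.63, and the LC cancers at 8.18, 8.41 and 9.06. The OP normal tissues stood at 8.30, 7.84 and 8.09, the OR normal tissues at 7.68 and 7.71, and the LC normal tissues at 8.92, 8.67 and 8.81. The 3 normal groups did not overlap with each other, and the OR cancers lay above all normal tissues.

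Cd14 encodes the co-receptor that hands bacterial lipopolysaccharide to TLR4. The OP cancers ran from 11.28 to 14.68 with a median of 13.69, the OR cancers stood at 13.24, 12.80 and 12.55, and the LC cancers at 13.85, 13.75 and 12.59. The OP normal tissues stood at 14.78, 14.70 and 15.79, the OR normal tissues at 14.76 and 14.93, and the LC normal tissues at 13.33, 15.42 and 13.65. The pattern differed from that of the other members: every OP and OR normal tissue was above every cancer, and the lowest normal value was that of LC normal replicate 1, which was highest for 7 of the other genes.

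**Figure D1:**
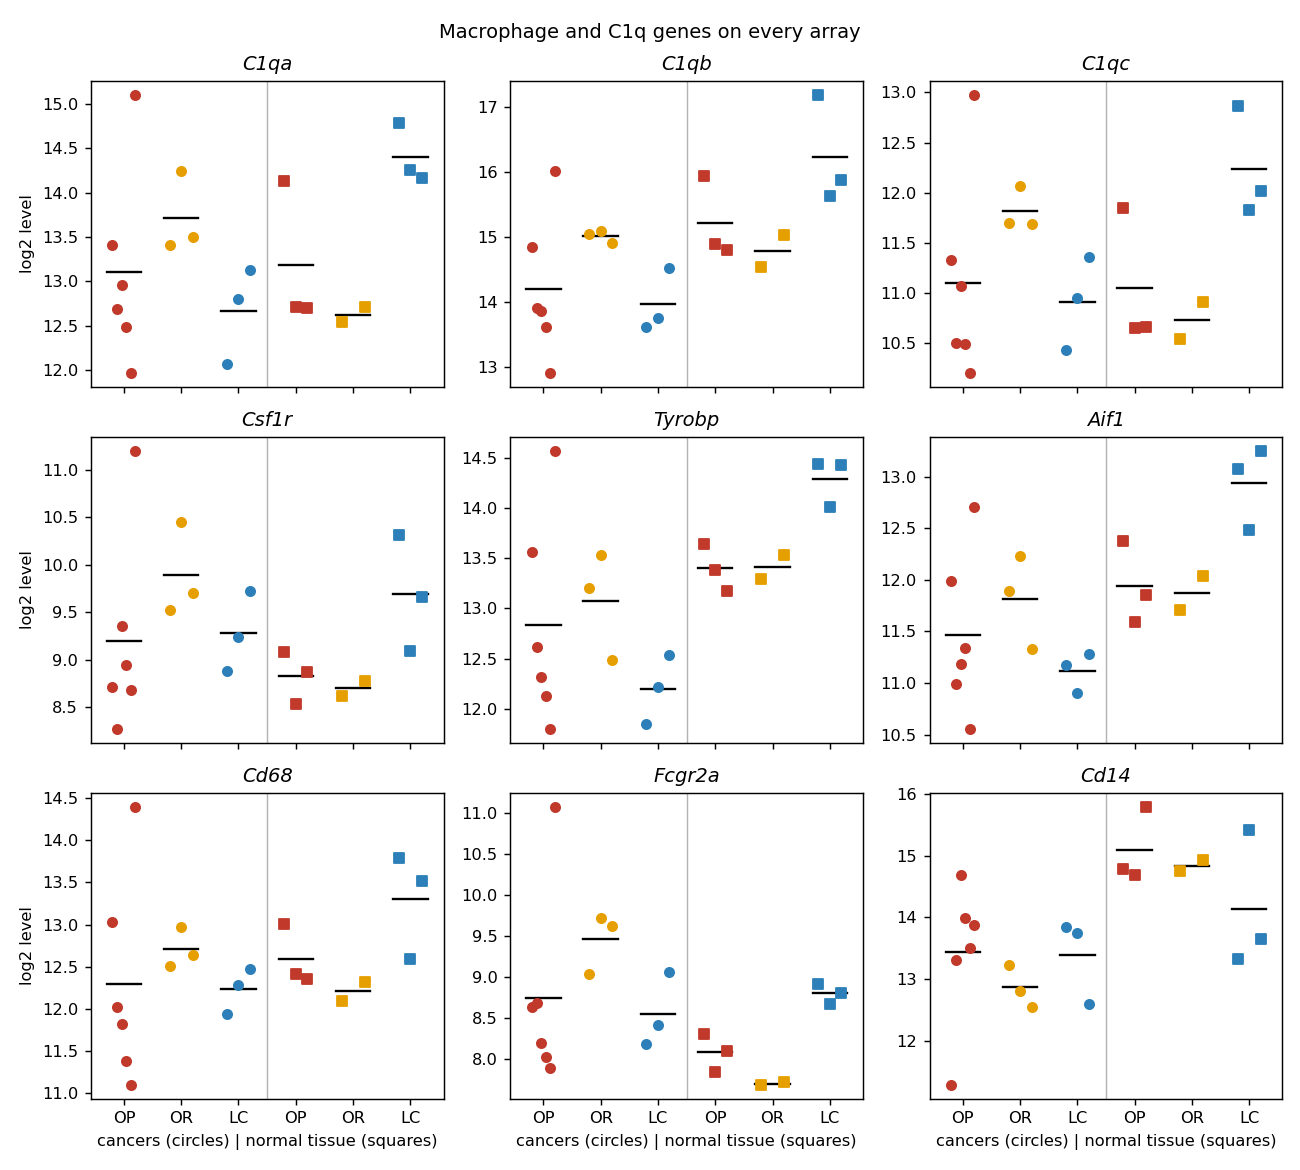
Log2 level of each of the 9 genes (vertical axis, 1 panel per gene, each with its own scale) on every array, by obesity group, with cancers as circles left of the grey line and normal tissues as squares right of it; black bars are group means. OP cancer replicate 6 is the highest cancer for 8 of the 9 genes, and LC normal tissue has the highest mean among normal groups for every gene but Cd14.

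The order of the 6 group means can be read from these values. LC normal tissue had the highest mean for 6 of the genes (C1qa, C1qb, C1qc, Tyrobp, Aif1 and Cd68), OR cancers for Csf1r and Fcgr2a, and OP normal tissue for Cd14. Going down the order, the gap to the next mean exceeded the larger of the SDs only below LC normal tissue for C1qa, C1qb, Tyrobp and Aif1, and for Fcgr2a below OR cancers, below LC cancers and below OP normal tissue. All other neighbours differed by no more than their spread. Within the cancers alone, the OR mean was the highest for 8 of the 9 genes. OP cancers spread most: 8 members were highest in OP cancer replicate 6 and 7 were lowest in OP cancer replicate 5, which lie on the same slide. Over all cancers the range of a member was 2.15 to 3.40 on the log2 scale, and over all normal tissues 1.24 to 2.65.

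OP cancer replicate 6 also stood apart in markers of other cells. Here and below, a summed level is the log2 of the summed brightness of the listed genes, so the brightest probes of a list weigh most. The summed level of the 3 neutrophil genes tested was 15.25 there, against 8.22 to 10.45 in the other 11 cancers. The summed level of 6 pan-leukocyte genes was 17.09 against 13.96 to 16.54, that of 10 T and NK cell genes 14.20 against 11.16 to 13.38, and that of 6 fibroblast genes 19.09 against 16.67 to 18.54, while the 7 luminal epithelial genes summed to 17.97 against 18.24 to 18.92. Adipocyte genes summed to 14.40 there against 11.67 to 13.03, and endothelial genes to 13.39 against 11.57 to 13.03. Mast cell genes (12.75 against 10.66 to 15.76) and dendritic cell genes (10.19 against 9.18 to 10.91) lay within the range of the other cancers. The part of these cells in the level of the macrophage genes was not tested. Results among the cancers are therefore given with and without this sample.

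How far the members rise and fall together was asked with Pearson's r and Spearman's rho over the 12 cancers and over the 8 normal tissues, 18 relations in all, with p-values from permutation tests, 2-sided, adjusted over the 18 by the method of Benjamini and Hochberg. The 3 C1q chains followed each other closely. In the cancers, C1qa and C1qc gave r = 0.979 and rho = 0.965 (permutation p = 1e-05 for each, the smallest the 100000 permutations can give, adjusted p = 6e-05), C1qa and C1qb 0.949, and C1qb and C1qc 0.958. In the normal tissues the corresponding values of r were 0.978, 0.929 and 0.979 (adjusted exact permutation p of at most 0.000957, 8 samples), with rho from 0.857 to 0.952. Without the 2 samples farthest from the median the lowest of these r values was 0.924, so the relation does not rest on them.

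The other macrophage genes followed the mean log2 level of the 3 C1q genes. In the cancers r was 0.944 for Cd68, 0.942 for Fcgr2a, 0.922 for Tyrobp, 0.909 for Aif1 and 0.863 for Csf1r, with rho from 0.797 for Csf1r to 0.902 for Fcgr2a; the largest adjusted permutation p was 0.000756 for r and 0.00465 for rho, both for Csf1r. Without OP cancers 5 and 6, the samples farthest from the median, r was 0.852 for Cd68, 0.875 for Fcgr2a, 0.824 for Tyrobp, 0.782 for Aif1 and 0.725 for Csf1r. Within the 8 cancers of the first scan day r lay between 0.93 for Aif1 and 0.988 for Csf1r. The 4 cancers of the second day were too few for a value. In the normal tissues, all from the second day, r ran from 0.894 for Aif1 to 0.92 for Cd68 (adjusted exact permutation p of 0.00419 and 0.000279 over 8 samples), and r ran from 0.806 to 0.865 without LC normal replicate 1 and OR normal replicate 1. The permutations in both tissues did not keep the obesity groups apart. For C1qa, Csf1r, Tyrobp, Aif1 and Fcgr2a all LC normal tissues lay above all high-fat ones, so these r values include that difference. Relations within an obesity group were not tested.

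Cd14 was the exception. Its r with the C1q mean was -0.271 in the cancers (permutation p = 0.391, rho -0.364) and -0.654 in the normal tissues (exact permutation p = 0.086, 8 samples, adjusted 0.0911, rho -0.524), and without the 2 farthest samples it was -0.609 and -0.452. No relation of Cd14 with the C1q genes was therefore shown in either tissue. Both Cd14 probes can be set against the same contrast: for cancer against normal tissue the brighter gave -1.46 and the dimmer -0.48, with an unadjusted limma p above 0.05. In LC they gave -0.74 and 0.20, so the calls for Cd14 rest on the brighter of 2 probes that disagree in size and, in LC, in sign. The probes of C1qa (-0.24 and 0.13) and of C1qc (-0.06 and 0.05) differed in sign.

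**Figure D2:**
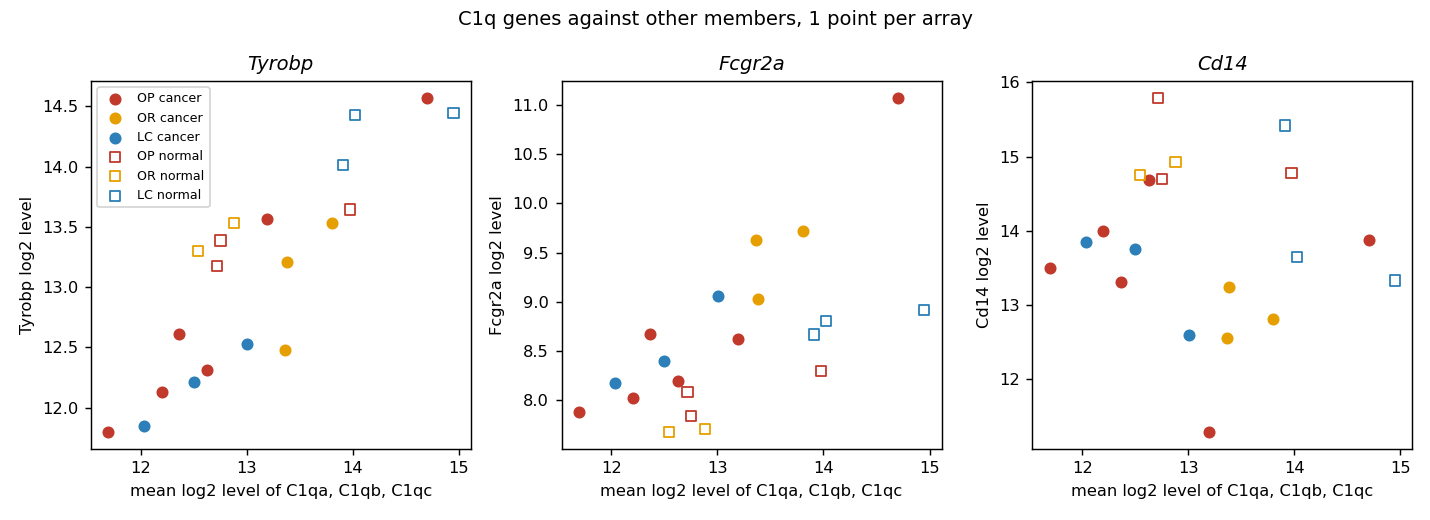
Log2 levels of Tyrobp, Fcgr2a and Cd14 (vertical axes) against the mean log2 level of C1qa, C1qb and C1qc (horizontal axis), 1 point per array, cancers as filled circles and normal tissues as open squares, coloured by obesity group. Tyrobp and Fcgr2a rise with the C1q mean within each tissue (r of 0.922 and 0.942 in the cancers), whereas Cd14 does not rise with it.

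Among the 8662 genes with a symbol, the 5 that were no members and followed the C1q mean most closely were chosen by the lower of the r over 12 cancers and the r over 8 normal tissues, as a description with no test. They were C5ar1, the receptor for the complement fragment C5a (0.937 and 0.937), Alox5ap, which activates 5-lipoxygenase for leukotriene synthesis (0.936 and 0.959), Fxyd2, a subunit of the sodium pump (0.931 and 0.974), the potassium channel Kcnk13 (0.924 and 0.970) and the lectin Clec10a of macrophages and dendritic cells (0.924 and 0.955). On the same scale Cd68 ranked 9, Fcgr2a 10, Tyrobp 13, Aif1 16, Csf1r 22 and Cd14 7955. These arrays share slides and scaling, so the order is a description of these samples.

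Cancers were then compared with normal tissue. C1qb, Cd14, Tyrobp and Aif1 were lower in the cancers, and C1qa, C1qc, Cd68, Csf1r and Fcgr2a did not pass the test. The value is the mean of the differences in the OP, OR and LC groups. For Cd14 it was -1.46 (SE 0.393, 2.74-fold lower, adjusted p = 0.00419 in limma), for C1qb -1.02 (SE 0.348, 2.03-fold, adjusted p = 0.0176), for Tyrobp -1.0 (SE 0.300, 2.0-fold, adjusted p = 0.00820) and for Aif1 -0.78 (SE 0.240, 1.72-fold, adjusted p = 0.00964). The 4 lower genes of 9 stand beside a background in which 33.5% of all genes passed as lower and 29% as higher, so their share is near that of all genes. No member passed as higher in this fit. Fcgr2a gave 0.73 (95% interval 0.03 to 1.42, adjusted p = 0.0647). It did pass as higher with quantiles without normexp (0.96, adjusted p = 0.0324 in limma), normexp offset 10 (0.81), array weights (0.60), the replicate block (0.63), the second scan day alone (0.43) and without OP cancer replicate 5 (0.78) or 6 (0.57, adjusted p = 0.00276), but not with the slide (0.38) or scan day (0.48) as a block. The other values were 0.38 for Csf1r (-0.28 to 1.05), -0.06 for C1qc (-0.73 to 0.61), -0.24 for C1qa (-0.97 to 0.49) and -0.29 for Cd68 (-1.03 to 0.45).

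In none of the 9 genes did the cancers and the normal tissues lie apart; among all genes all cancers were below all normal tissues in 11.6% and above in 8.6%. The median difference of the 9 genes was -0.29, and that of all genes -0.03. That last value depends on the scaling: with each array set to the 75th percentile of its processed signal the median of all genes shifted to -1.50, and after normexp with the same percentile to -0.78. Cd14 (-1.36 and -1.34), C1qb (-0.98 and -1.01), Tyrobp (-0.88 and -0.80) and Aif1 (-0.61 and -0.53) stayed lower and past the threshold with these scalings, and relative to the typical gene all 9 members were then above it in the former and 6 of 9 in the latter, against 2 of 9 with quantiles. C1qc turned to 0.17 and 0.21. Of all calls, 46.5% were higher in the cancers with quantiles, against 18.1% and 18% with the 75th percentile.

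The scan days and slides bear on this contrast, because the normal tissues were all read on the second day. Within slides 1, 2 and 3, which held 2, 1 and 1 cancers beside 2, 3 and 3 normal tissues, Cd14 differed by -1.49, -1.65 and -1.56, C1qb by -2.34, -1.12 and -0.19, Tyrobp by -1.34, -0.95 and -0.50 and Aif1 by -1.14, -0.93 and -0.49. All 4 were lower in the cancers on each slide. With the scan day as a block only Cd14 passed, and the adjusted p of limma rose to 0.0852 for C1qb, 0.0670 for Tyrobp and 0.0699 for Aif1 at differences of -1.01, -0.93 and -0.73. Csf1r gave -0.16 in that fit, -0.27 with the slide as a block and -0.10 on the second scan day alone, so it has no direction that holds across the batches.

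The same comparison was made within each obesity group. In the lean controls 4 genes were lower in the cancers: C1qb by -2.27 (SE 0.602, 4.84-fold, adjusted p = 0.00657), Tyrobp by -2.10 (SE 0.520, 4.28-fold, adjusted p = 0.00437), Aif1 by -1.82 (SE 0.416, 3.52-fold, adjusted p = 0.00263) and C1qa by -1.75 (SE 0.596, 3.35-fold, adjusted p = 0.0264). The background of genes lower in LC cancers was 23.6%. C1qc (-1.33, adjusted p = 0.0606), Cd68 (-1.07), Cd14 (-0.74), Csf1r (-0.40) and Fcgr2a (-0.25) did not pass in limma. Every LC cancer lay below every LC normal tissue for 6 genes (the 3 C1q genes, Cd68, Tyrobp and Aif1), which was so for 27.6% of all genes. The C1qa call was lost without LC cancer replicate 1, LC cancer replicate 2 or LC normal replicate 1, with the value between -1.45 and -1.98 over all samples left out in turn.

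In the OR group Fcgr2a was higher in the cancers, by 1.76 (SE 0.637, 3.39-fold, adjusted p = 0.0482 in limma), while 14% of all genes passed as higher. That call was lost in 15 of the 20 fits that left out a sample. Csf1r stood at 1.19 (95% interval -0.10 to 2.48), C1qa at 1.09 (-0.32 to 2.51), C1qc at 1.09 (-0.21 to 2.39) and Cd14 at -1.98 (-3.59 to -0.37, adjusted p = 0.0622). All OR cancers lay above both OR normal tissues for 5 genes (C1qa, C1qc, Cd68, Csf1r and Fcgr2a), as did 28.8% of all genes. For 3 of these, C1qa, C1qc and Cd68, every LC cancer also lay below every LC normal tissue, and both held together for 0.272% of all genes. These 3 genes moved together from array to array, so they are not 3 separate results. In the OP group Cd14 alone passed, lower in the cancers by -1.65 (SE 0.590, 3.14-fold, adjusted p = 0.0321), against a background of 23.5% lower; the call was lost without any 1 of the 3 OP normal samples, with the scaling to the 75th percentile and with other settings given at the end. With array weights 7 of 9 members passed in that group, and 3 did without OP cancer replicate 6. C1qb in OP gave -1.02 (95% interval -2.12 to 0.09) and C1qa -0.08 (-1.17 to 1.01).

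**Figure D3:**
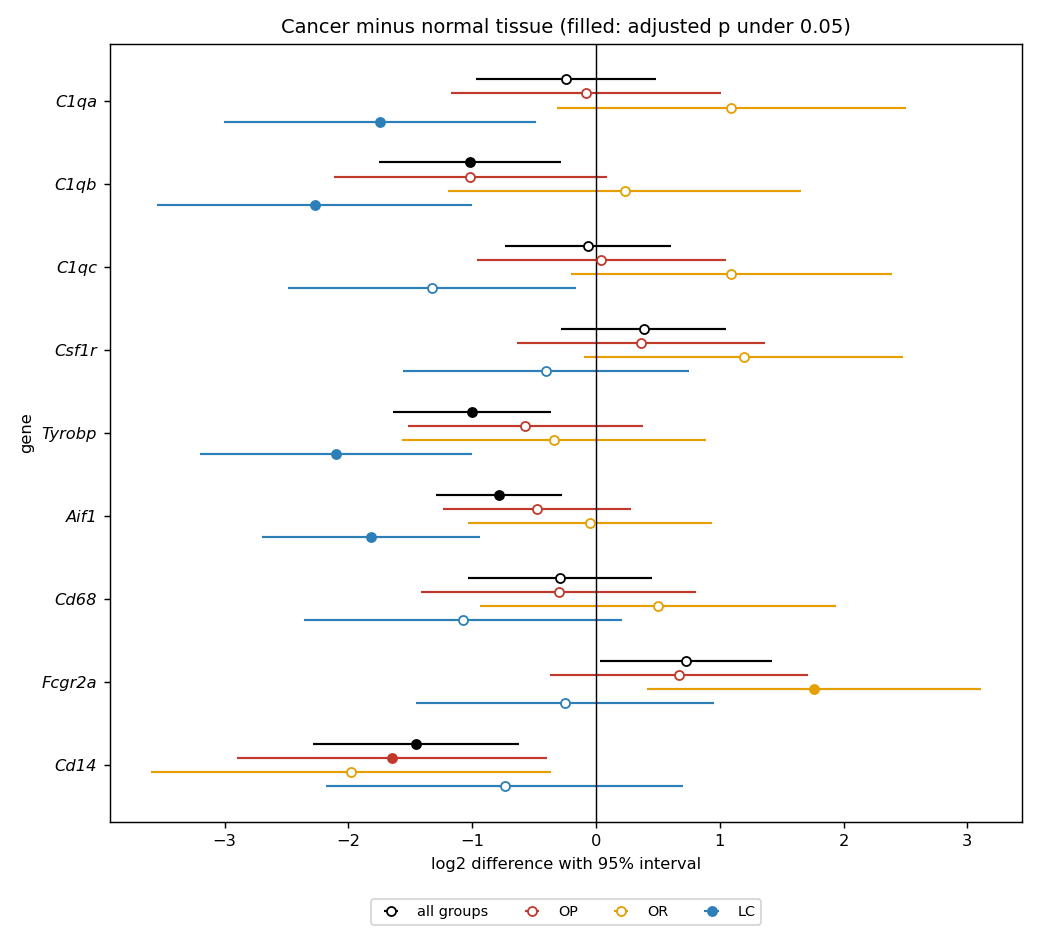
Cancer minus normal tissue for each gene (rows) on the log2 scale, as points with 95% intervals, over all groups (black) and within OP, OR and LC; filled points passed an adjusted p of 0.05 in limma. The LC points lie below 0 for every gene and the OR points lie furthest right for every gene but Cd14, where LC does.

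Whether the groups differ in this contrast was tested directly. Between OP and the mean of OR and LC no member and no gene at all passed, and with an unadjusted p under 0.05 there were 0 members against 4.32% of all genes. The difference between OR and LC was added after the values by group had been seen. It was 2.84 for C1qa (95% interval 0.95 to 4.73, adjusted p = 0.381 in limma), 2.51 for C1qb (0.59 to 4.42), 2.42 for C1qc (0.68 to 4.16), 2.01 for Fcgr2a (0.20 to 3.82), 1.77 for Aif1 (0.45 to 3.09) and 1.76 for Tyrobp (0.11 to 3.41). None passed the adjustment over all genes. With an unadjusted p under 0.05, 6 of the 9 members were higher in this sense, against 3.05% of all genes. All members but Cd14 moved together from array to array, so such counts, here and below, are not counts of separate results. The count was 8 without OP cancer replicate 6, against 3.57% of all genes. It was 3 to 5 without any of the OR samples, LC cancer replicates 1 or 2, or LC normal replicates 1 or 3, where the share of all genes ran from 1.62% without OR normal replicate 1 to 7.71% without LC normal replicate 1. With the slide as a block, also added later, 4 members had an unadjusted p under 0.05, all higher, against 9.17% of all genes in either direction. The lowest adjusted p of any member in limma with a sample left out was 0.0596, without OP cancer replicate 6. Between OP and LC, Tyrobp (1.53) and Aif1 (1.34) had an unadjusted p under 0.05 in limma, as 3.65% of all genes did in that direction, and no gene passed the adjustment. That count of 2 became 0 without LC cancer replicate 2, OP normal replicate 2, LC normal replicate 1 or LC normal replicate 3, against 2.64%, 3.41%, 8.68% and 4.85% of all genes. It became 4 without OP cancer replicate 5 or OP normal replicate 1, against 3.51% and 3.42%, 3 without OP cancer replicates 2, 4 or 6 or LC cancer replicate 3, and 1 without OP cancer replicate 1, LC cancer replicate 1 or OP normal replicate 3.

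Among the cancers, diet and obesity group made no difference that passed. In limma, 0 genes of all passed for OP against OR, OP against LC and OR against LC, and no member reached an unadjusted p under 0.05, against 11%, 7.31% and 4.22% of all genes. OP minus OR was -0.62 for C1qa (95% interval -1.85 to 0.62), -0.82 for C1qb (-2.01 to 0.36), -0.70 for Csf1r (-1.87 to 0.47) and -0.71 for Fcgr2a (-2.0 to 0.58). OR minus LC was 1.06 for C1qa (-0.37 to 2.48) and 0.91 for Fcgr2a (-0.58 to 2.40). These intervals are wide and do not show the groups to be alike. No slide held both OP and OR cancers, and 4 of the 6 OP cancers lay on a slide of their own. With the slide as a block OP minus OR turned to 0.44 for C1qa, 0.37 for C1qb, 0.18 for C1qc, 0.66 for Cd68, 1.08 for Tyrobp and 0.13 for Aif1, stayed below 0 for Csf1r (-0.77) and Fcgr2a (-0.49), and went from 0.58 to -2.07 for Cd14 (adjusted p = 0.371 in limma). That estimate runs through the LC cancers. It rests on 1 OP and 1 LC cancer of slide 1 and on 2 OR and 2 LC cancers of slide 5. Its SE was 1.61 for C1qa, so it cannot show whether the direction of OP against OR cancers holds across the slides. OR minus LC with that block rests on slide 5 alone. It stayed above 0 for the 8 genes other than Cd14, at 0.91 for C1qa (SE 0.929) and 0.94 for Fcgr2a (SE 1.01). All OR cancers lay above all LC cancers for 5 genes (C1qa, C1qb, C1qc, Cd68 and Aif1), as did 6.45% of all genes. OP against the mean of OR and LC gave 0 members either way, with 11.5% of all genes at an unadjusted p under 0.05.

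OP cancer replicate 6 decided much of this spread. Without it OP minus OR was -1.18 for Fcgr2a (SE 0.254, adjusted p = 0.111 in limma), -1.10 for Csf1r (SE 0.279), -1.10 for C1qc (SE 0.273), -1.19 for C1qb (SE 0.359), -1.02 for C1qa and -0.84 for Cd68 (SE 0.362). That made 6 of 9 members lower at an unadjusted p under 0.05, against 7.48% of all genes, and none passed the adjustment. A fit with the slide as a block was added after the values had been seen. Leaving out this sample cannot change OP minus OR there, since its slide held only OP cancers. Fcgr2a was thus again -0.49, and C1qa, C1qb, C1qc, Cd68, Tyrobp and Aif1 again stood above 0. No slide held both OP and OR cancers, so the count of 6 lower members cannot be told apart from the slides. Without this sample and without the block, OR minus LC was 0.91 for Fcgr2a, 1.06 for C1qa, 0.91 for C1qc and 1.05 for C1qb. Each had an unadjusted limma p under 0.05 and an adjusted p of 0.9075. With the block as well, 2 of 9 members had an unadjusted limma p under 0.05, against 9.68% of all genes. Without this sample OP minus LC lay between -0.49 for Csf1r and 0.29 for Tyrobp when no block was used. With the slide as a block it lay between -2.57 for Cd14 and 1.72 for Tyrobp, from 1 OP and 1 LC cancer. OR and LC differ in diet as well as in the split by weight, whereas OP and OR share the diet.

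In normal tissue 8 of the 9 members had lower means in both high-fat groups than in lean controls, Cd14 excepted. Of these 8, 6 in OP and 8 in OR had an unadjusted p under 0.05 in limma, and no gene passed the adjustment. OR minus LC was -1.10 for Fcgr2a (95% interval -1.46 to -0.75, adjusted p = 0.181 in limma with 5 residual degrees of freedom), -0.88 for Tyrobp (-1.34 to -0.42), -1.78 for C1qa (-2.87 to -0.70), -1.06 for Aif1 (-1.79 to -0.34), -1.51 for C1qc, -1.09 for Cd68, -0.99 for Csf1r and -1.45 for C1qb. The largest adjusted p among these 8 was 0.498. These are 8 of 9 members with an unadjusted p under 0.05 and lower, against 2.85% of all genes. They moved together over these same normal tissues, as described above, so they are not 8 separate results. Cd14 gave 0.71 (-0.84 to 2.26). No gene passed the adjustment in limma, where 8.99% of all genes had an unadjusted p under 0.05 in either direction.

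OP minus LC gave 6 of 9 members lower at an unadjusted p under 0.05, against 3.01% of all genes: -0.72 for Fcgr2a (95% interval -1.04 to -0.40, adjusted p = 0.193 in limma), -0.89 for Tyrobp (-1.30 to -0.48), -0.99 for Aif1, -1.23 for C1qa, -1.18 for C1qc and -0.86 for Csf1r. C1qb (-1.03, -2.19 to 0.13) and Cd68 (-0.71, -1.51 to 0.09) had intervals that include 0. Both comparisons share the LC normal samples, which also enter the comparison of LC cancers with LC normal tissue, so none is independent of the others. All 5 high-fat samples lay below all 3 LC samples for C1qa, Csf1r, Tyrobp, Aif1 and Fcgr2a, as for 4.07% of all genes, with the nearest values at 9.08 and 9.09 for Csf1r. Within slides 1, 2 and 3 the high-fat tissues were below LC for all 8 genes on each slide, with differences from -0.34 to -1.63, while Cd14 differed by 1.45, -0.69 and 1.71.

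Single samples moved these counts. For OP minus LC the count of 6 became 3 without LC normal replicate 1, without OP normal replicate 2 or without OP normal replicate 3, against 9.11%, 2.27% and 1.55% of all genes. For OR minus LC the count of 8 became 3 without OR normal replicate 1 and 5 without OR normal replicate 2, against 0.946% and 1.35% of all genes; without LC normal replicate 1 it was 6, against 9.18% of all genes, and Fcgr2a passed the adjustment (adjusted p = 0.0435 in limma). In each of these fits 8 of 9 members stayed below 0. OP minus OR in normal tissue was 0.38 for Fcgr2a (95% interval 0.03 to 0.74, with an unadjusted p under 0.05 and higher as in 0.125% of all genes), -0.01 for Tyrobp (95% interval -0.47 to 0.45) and 0.56 for C1qa (-0.53 to 1.64), with no gene past the adjustment. From 3 against 2 samples these intervals do not show the groups to be alike. OP against the mean of OR and LC gave 1 member with an unadjusted limma p under 0.05, Tyrobp at -0.45 (adjusted p = 1), against 0.644% of all genes that were lower.

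Markers of other cells differed between the same normal tissues. The summed level of the 7 luminal epithelial genes was 15.10 to 17.05 in LC against 16.85 to 17.54 in OP and 17.22 to 17.34 in OR, and the median gene of that list was 1.26 higher in OP and in OR than in LC. The pan-leukocyte genes summed to 15.32 to 18.04 in LC against 14.99 to 15.56 in the high-fat groups, with median differences of -1.11 for OP and -1.24 for OR. LC normal replicate 3 held far more T and NK cell signal (16.32) than the other 7 normal tissues (11.34 to 12.21). Adipocyte genes differed by a median of -0.04 in either comparison. Lists of genes that work with the members went both ways. Those of the CSF1 receptor axis summed to 13.68 to 14.70 in LC, 14.90 to 15.21 in OP and 14.98 to 15.25 in OR. Macrophage attractants summed to 13.72 to 14.40 in LC, 14.48 to 15.45 in OP and 14.89 to 15.55 in OR. Fc receptors were higher in LC, at 12.75 to 13.11, against 12.14 to 12.57 in OP and 12.07 to 12.24 in OR. None of these list genes passed the adjustment in these comparisons, and the part of cell makeup in the level of the macrophage genes was not tested. Without LC normal replicate 3 the counts of members lower at an unadjusted p under 0.05 were 5 for OP and 6 for OR, against 4.41% and 3.92% of all genes.

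**Figure D4:**
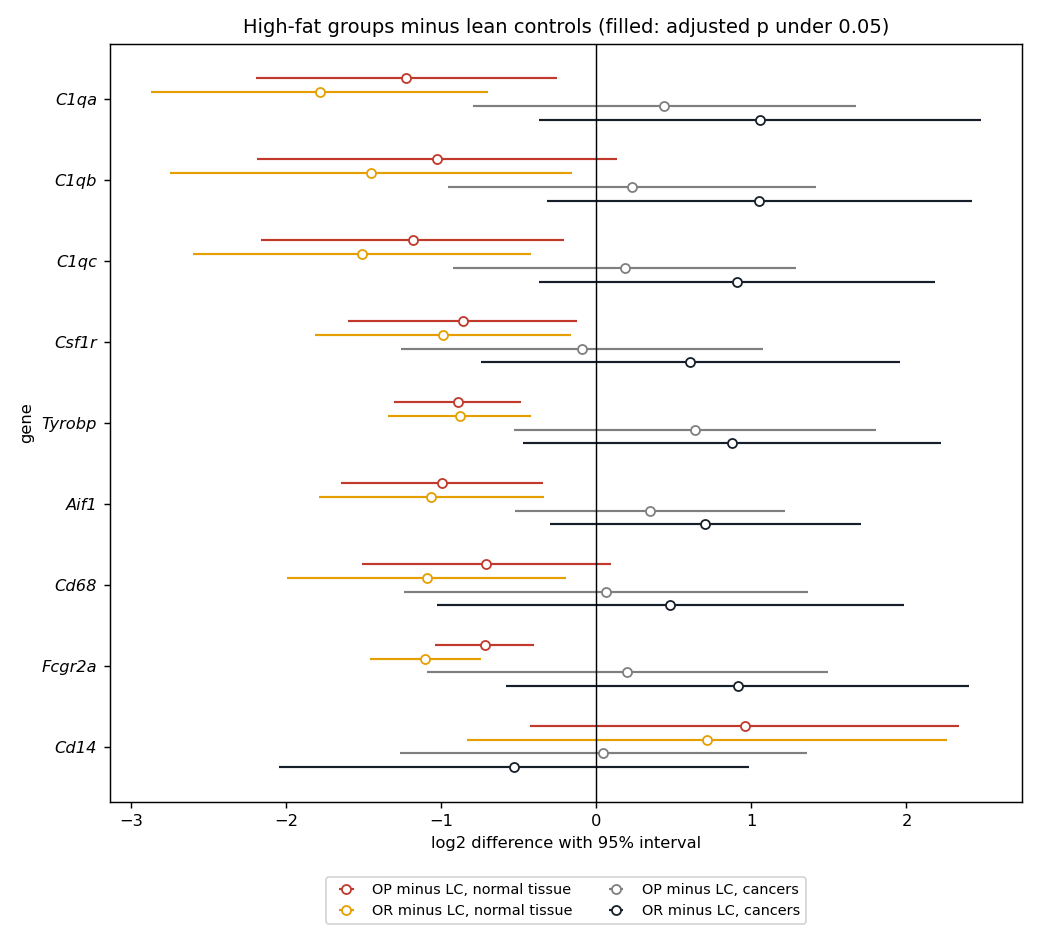
High-fat groups minus lean controls for each gene (rows) on the log2 scale, as points with 95% intervals, in normal tissue (red for OP, orange for OR) and in cancers (grey for OP, black for OR); no point passed an adjusted p of 0.05. In normal tissue the points of all genes but Cd14 lie below 0, while in the cancers the OR points of the same genes lie above 0.

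Genes that work with the members were compared between cancers and normal tissue by list, with counts of genes past an adjusted p of 0.05 in limma. Over all genes the median was -0.03, with 33.5% lower and 29% higher past that threshold, and the counts of the lists are to be read against these shares. Of 8 genes of the classical pathway and its companions, 1 rose and 4 fell (median -0.44). Cfd, the protease that starts the alternative pathway and a product of fat cells, fell by 5.49, and the lectin pathway proteases Masp1 and Masp2 also fell, being well above background in 6 and 4 of the 12 cancers. Their size depends on the scaling, at -0.42 and -0.47 with quantiles, -3.03 and -3.69 with the 75th percentile and -1.39 and -1.45 after normexp with that percentile. Of 9 complement inhibitors, 2 rose and 4 fell: Serping1, which blocks the proteases C1r and C1s that C1q activates, fell by 2.29 (adjusted p = 7.21e-05), and vitronectin (Vtn) fell by 2.08. Of 7 receptors for complement and C1q, 2 rose and 3 fell, with C3ar1, the receptor for C3a, at -0.97, C1qbp at 0.54 and Cr1l at 0.89.

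In the axis that makes and keeps macrophages, of 8 genes 5 fell and 1 rose (median -1.14). The transcription factors Maf and Cebpa, which act in myeloid cells and, for Cebpa, also in fat cells, fell by 1.76 and 1.67 (adjusted p = 6.73e-05 and 3.69e-07). Of 7 scavenger and phagocyte receptors, 5 fell and none rose: Cd36, which fat and endothelial cells also express, by 2.44, Scarb1 by 1.99 and Clec10a by 1.27. Against the shift of all genes by -1.50 under the scaling to the 75th percentile, the median of the CSF1 receptor axis lay 0.15 below it and that of the scavenger receptors 0.61 above it, so the latter has no direction relative to the typical gene that holds across scalings.

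The list of TYROBP partners, kinases and other myeloid signalling genes was mixed. Of its 9 genes 1 was higher (Plcg2, a phospholipase of B and myeloid cells, 1.85) and 1 lower (Sirpa, an inhibitory receptor of macrophages, -0.76). None of 5 Fc receptor genes passed, and 1 of 5 had an unadjusted limma p under 0.05. With the slide as a block Fcer1a (-0.64, adjusted p = 0.0159) and Fcgrt (-0.75, adjusted p = 0.0143) passed as lower in limma, and Fcer1a also passed as lower with both 75th-percentile scalings. In the chain from CD14 to TLR4, 3 of 5 genes fell and 2 rose. Tlr2 fell by 1.09 and Tlr4 by 0.30, and Myd88, the adaptor behind both, rose by 0.63; with the slide as a block Tlr4 (-0.26) and Myd88 (0.43) did not pass. With both 75th-percentile scalings none of these 5 was called higher. For the partners of Cd163, haptoglobin (Hp) rose by 1.36, a call that was lost with the slide as a block (0.86, adjusted p = 0.122 in limma), and 6 of 8 did not pass. Biliverdin reductase (Blvra) passed at -0.16 but not with the slide as a block (-0.21) or the 75th percentile (-0.02). Of 13 lysosome and phagosome genes 2 fell (Lipa by 1.47 and Ctsl by 1.2) and 1 rose (Ctsz by 0.85), the latter not past the threshold with the slide as a block (0.45, adjusted p = 0.386 in limma). Of 11 attractants and their receptors 3 rose, among them osteopontin (Spp1) by 3.06, and 2 fell, among them the chemokine Ccl5 by 1.87.

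Markers of other cells were listed to show what else differs between these tissues. Besides the adipocyte and epithelial lists above, all 3 endothelial genes fell (median -1.65), and 5 of 6 fibroblast genes fell (median -1.76, Fbn1 at -2.39 and Dcn at -1.96). Of the immune lists, 1 of 6 pan-leukocyte genes fell (Arhgdib, by 1.95), 1 of 10 T and NK cell genes rose (Gzmb, by 0.74) and 1 fell (Prf1, by 1.02), 3 of 4 dendritic cell genes fell (Lamp3, Itgae and Batf3, of which Lamp3 and Itgae were well above background in 1 and 3 of the 12 cancers), 2 of 7 mast cell genes fell (Kit and Tpsab1), 1 of 4 B and plasma cell genes rose (Sdc1, also made by epithelium, by 1.37), and 0 of 3 neutrophil genes passed, also by unadjusted p. Gzmb turned to -0.17 and -0.13 with the 75th-percentile scalings, where Tpsab1 did not pass. With these 2 scalings the median of all genes shifted to -1.50 and -0.78. The neutrophil gene Cxcr2 (-2.88 and -0.77) then passed as lower. So did the T cell gene Cd4 (-2.34 and -1.17) and the B cell genes Cd79b (-4.36 and -2.12) and Blk (-2.41 and -1.13). Cxcr2, Cd79b and Blk were well above background in 1, 3 and 6 of the 12 cancers. Prf1 and Batf3 did not pass with the slide as a block, nor did Batf3 with the 75th percentile of the processed signal.

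**Figure D5:**
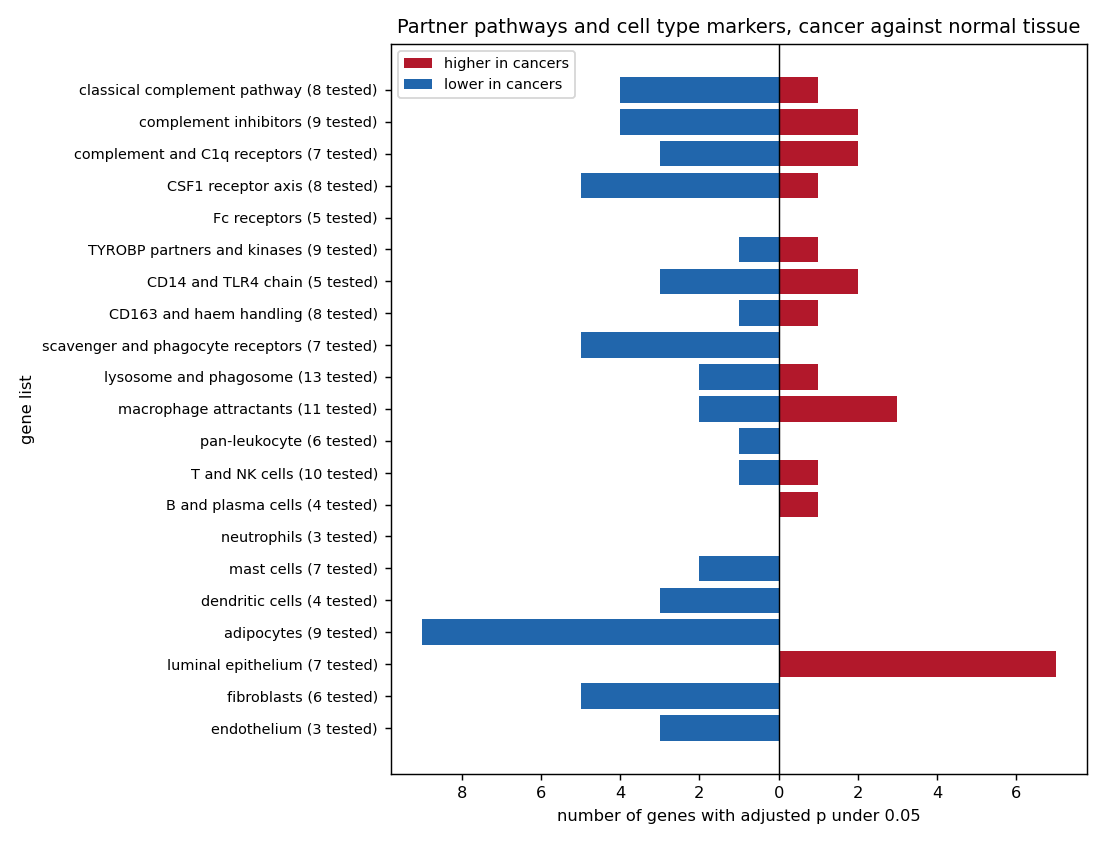
Number of genes (horizontal axis) past an adjusted p of 0.05 in limma that were higher (red, to the right) or lower (blue, to the left) in cancers than in normal tissue, for each list of partner genes and cell type markers, with the number tested in brackets. All 9 adipocyte genes were lower and all 7 luminal epithelial genes higher.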

How the data were processed

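RNA of 20 tissues was measured on Agilent arrays of the rat genome, in 1 colour and with 1 array per sample. The deposited scanner files hold spot intensity values from Agilent Feature Extraction, version 9.5.1.1 per the file headers and 10.7.3.1 per the submitters' processing notes. The authors' value table holds log2 values; set against the deposited scanner files, they equal the log2 processed signal minus each array's 75th percentile, centred per probe, with a median gap of 0.00061, and the step that the series' text names as RMA was not seen there. Other deposited columns used here are probe names, accessions and quality marks (unit other).

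From the median signal and background, normexp (offset 50) and quantile normalization were run in limma 3.58.1 (R 4.3.3). Of 43379 spots that are not controls, spots of 1 probe were averaged to 41012 probes; 115 probes with outlier marks and 825 dim probes were left out, and the brightest probe stood for each of 36043 genes. No spot was saturated. Groups were compared with lmFit and eBayes, over all 20 arrays for cancer against normal tissue and within 1 tissue for the obesity groups, with Benjamini-Hochberg adjustment over all genes and a threshold of 0.05. On simulated data for cancer against normal tissue, 89 of 100 genes changed by 1 on the log2 scale and 99 of 100 changed by 2 were recovered, with 6 false calls over 36043 genes. The number of arrays limits the precision.

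The members and lists were chosen with earlier results of these data known. Named list genes are the 3 with the smallest p for cancer against normal tissue in each list, and the genes most like C1q are the 5 with the highest lower r of both tissues; some named list genes are not reported here. Alternatives were other scalings, offsets, filters, probe rules, blocks, weights, the authors' table and each sample left out. Replicate numbers did not pair the samples.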

Additional observations from a re-analysis of the deposited data

Results flagged for a closer look

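OP cancer replicate 6 lay far from the other 5 OP cancers for Csf1r, at 11.20 against 9.35 for the next, a gap of 0.632 of the whole range. It did so for Fcgr2a as well, at 11.07 against 8.68, a gap of 0.752 of the range. Chance gives about 1 such group in 20, and the 2 genes move together, so they are not separate cases. The same sample had the highest neutrophil, leukocyte, fibroblast, adipocyte and endothelial marker levels of the cancers, and the part of these in the levels was not tested.

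For C1qa, C1qc and Cd68 every OR cancer lay above both OR normal tissues while every LC cancer lay below every LC normal tissue. Both held together for 0.272% of all genes, the former by itself for 28.8% and the latter by itself for 27.6%. The 3 genes moved together from array to array, so they are not separate cases. The difference between the OR and LC contrasts was 2.84 for C1qa (adjusted p = 0.381 in limma), 2.42 for C1qc (adjusted p = 0.427) and 1.57 for Cd68 (adjusted p = 0.705). None passed the adjustment over all genes.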

How the results depend on the processing

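Of 157 counts of called members under settings other than leaving out a sample, 144 kept within 1.5 times their value. These include the comparisons between obesity groups, where each count stayed at 0. Where members had passed, the count kept within that limit in 12 of 13 settings for cancer against normal tissue. It did so in 13 of 13 in LC, 7 of 13 in OP and 7 of 13 in OR. Of 169 member differences 153 kept direction and side of the threshold. For cancer against normal tissue 4 members passed, and 1 with the scan day as a block. In OP the count of 1 became 0 with the 75th percentile, the mean of all probes, the authors' table or the replicate block, 7 with array weights and 2 with the second scan day alone, a setting added after seeing the data. In OR the count of 1 became 0 with the 75th percentile, the slide or scan day as a block or the authors' table, 2 with the 75th percentile after normexp and 3 with array weights. C1qc turned from -0.06 to 0.17 with the 75th percentile, 0.21 after normexp and 0.18 in the authors' table, and Csf1r from 0.38 to -0.27, -0.16 and -0.10 with slide, scan day and the second scan day alone. Leaving out each sample gave 3 to 5 members for cancer against normal tissue, 3 to 6 in LC, 0 to 3 in OP, 0 to 2 in OR, 0 to 1 for OR against LC normal tissue and 0 elsewhere. C1qc then ran from -0.19 to 0.069, and the C1qb call was lost without OR normal replicate 2 (adjusted p = 0.0568 in limma). Same-numbered samples were correlated above 0.1 in 5 of 40 pairs (-0.35 to 0.28), so the numbers are not a pairing; with the replicate block Fcgr2a gave 0.63 (adjusted p = 0.00347 in limma). All 12 member probes were well above background on every array, and the groups hold 2 to 6 samples.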
